A study of Mus musculus with 6 samples.

Results

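The 10 genes described here, Ccl2, Ccl3, Ccl4, Ccl5, Ccl6, Ccl7, Ccl9, Ccl22, Cxcl2 and Cxcl10, encode chemokine ligands that macrophages are known to secrete. The 10 genes were chosen by name for this known role. However, they and all gene lists below were chosen with earlier results of these data known, so counts over them are descriptions. The 10 genes are among the 56092 gene symbols in the count table. They were followed in RNA-seq libraries of the mouse macrophage line RAW264.7, carrying either a control shRNA (shNC, 3 libraries) or an shRNA against Trem2 (shTrem2, 3 libraries) as a stable insertion. Both groups were given 20 ng/mL IL-4 over 24 hours, followed by co-culture with debris of TCMK-1 cells, a mouse kidney tubular epithelial line broken by freezing and thawing. The comparison asks how loss of Trem2, a lipid-sensing receptor of macrophages, changed the transcriptome of cells that had met tubular debris. Both shRNAs were delivered by lentivirus with a GFP marker, and carriers were selected with puromycin, so each group is a selected cell line. Which Trem2 shRNA and which debris dose entered sequencing, and whether replicates were separate cultures, is not given in the sources used here, so p-values measure the spread between these libraries only. There was no library without IL-4 or without debris.

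Chemokines are small secreted proteins that guide leukocytes along concentration gradients through G protein-coupled receptors. Their names follow the spacing of conserved cysteines, adjacent in CCL proteins and separated by another residue in CXCL proteins. In injured kidney, CCL ligands are known for drawing in monocytes and T cells, and CXCL2 for drawing in neutrophils. Transcription of many of these genes is known to be switched on by NF-kB, while CXCL10 is a classical interferon target and CCL22 a product of IL-4-treated macrophages.

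The counts assigned to a gene symbol totalled 15876119 to 18088388 in the shNC libraries and 19358125 to 19655165 in the shTrem2 libraries. A gene at 0 could therefore hold up to 3 counts, or 0.153 to 0.189 CPM (counts scaled to the library's total over named genes). This limit covers counting error only. Trem2 fell from 128 ± 14.9 CPM to 68.5 ± 9.32 CPM (SD, n = 3 each), with a log2 fold change of -0.87 ± 0.09 (SE, edgeR FDR = 3.39e-06). Its coding transcript Trem2-201 fell further, from 68.6 ± 8.11 to 15.2 ± 3.76 CPM. The summed counts of 10 macrophage markers were 89858 to 119655 in the shNC libraries and 204551 to 234566 in the shTrem2 libraries. Of the 10 markers, 9 were tested. Among them Lyz2, Fcgr1 and Csf1r were higher in shTrem2 and Itgam, an integrin subunit, was lower. Arg1, the arginase that gives the Arg1+ macrophages of this study their name, had 1 to 3 counts per library, and the IL-4 markers Chil3 and Retnla had 0 in all 6 libraries, so these mRNAs were not detected in either group. Of the other IL-4 response markers, Mrc1 and Mgl2 were higher and Clec10a was lower in shTrem2. Mrc1 had 5, 14 and 6 counts in shNC and 62, 71 and 56 in shTrem2. Mgl2 had 10, 11 and 7 counts in shNC and 31, 30 and 23 in shTrem2. Both entered the test mainly through the shTrem2 libraries, so their differences are descriptions. Tubular epithelial markers, which could arrive with the debris, summed to 7 to 16 counts per library, 12 of the 14 had 3 counts or fewer in every library, and Epcam, Krt8, Krt18 and Cdh1 were at 0 throughout.

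Of the 10 ligands, 8 passed the filter on low counts and were tested, Ccl2 fell below it and Ccl7 was not detected. Differentially expressed genes (DEGs) are those past the study's thresholds, a fold change over 1.5 at a false discovery rate (FDR) under 0.05, and 4 of the 8 were DEGs. Ccl3, Ccl4 and Ccl22 were lower in shTrem2 and Cxcl10 was higher. Among all 13528 genes tested, 21.8% were DEGs, 12.4% lower and 9.46% higher. At an FDR under 0.05 with no fold threshold, 5 of the 8 ligands passed, against 57.4% of all genes, and in 6 of the 8 the CPM values of the groups did not overlap, against 63.5% of all genes. The median log2 fold change was -0.29 over the 8 ligands and 0 over all genes tested. Ccl22 passed the filter only through the shNC libraries, so these counts are descriptions of the genes that could be tested. In bulk RNA, fewer cells that make a transcript and less of it per cell cannot be told apart.

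**Figure D1:**
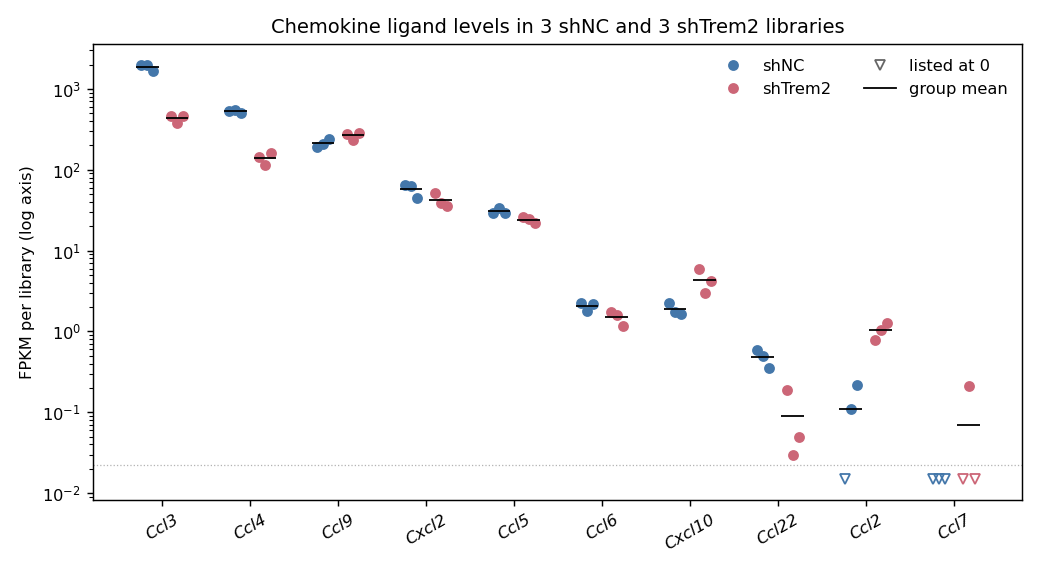
FPKM (fragments scaled for transcript length and library depth, log axis) of the 10 ligands in each library of shNC (blue) and shTrem2 (red), ordered by the shNC mean, with group means as black lines and libraries listed at 0 as open triangles. Ccl3 and Ccl4 lay lower and Cxcl10 and Ccl2 higher in every shTrem2 library than in any shNC library, and levels ran from a mean of 1869 FPKM for Ccl3 down to 0 for Ccl7 in shNC.

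Ccl3 and Ccl4 encode the macrophage inflammatory proteins MIP-1alpha and MIP-1beta, which attract monocytes and T cells, CCL3 in part through CCR1. Ccl3 had 880, 877 and 732 CPM in the shNC libraries and 208, 169 and 202 CPM in the shTrem2 libraries. The groups were far apart, and the lowest shNC library exceeded the highest shTrem2 library. The log2 fold change of Ccl3 was -2.07 ± 0.08 (SE), a 4.19-fold decrease (edgeR FDR = 4.61e-10). Ccl4 had 179, 184 and 169 CPM in shNC and 48.9, 39.0 and 53.1 CPM in shTrem2. Its groups were as clearly separated, with an SD of 7.75 CPM in shNC and 7.27 CPM in shTrem2. The log2 fold change of Ccl4 was -1.88 ± 0.09, a 3.67-fold decrease (edgeR FDR = 1.18e-09). Over the 16 alternative settings in which each was computed, the log2 fold change stayed between -2.15 and -1.98 for Ccl3 and between -1.98 and -1.76 for Ccl4.

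Ccl5 encodes RANTES, a ligand of CCR1 and CCR3 that attracts T cells and monocytes. It had 6.05, 7.08 and 6.14 CPM in shNC and 5.55, 5.22 and 4.38 CPM in shTrem2. Every shTrem2 library was below every shNC library, but the gap was small. The log2 fold change was -0.31 ± 0.16 and missed the threshold (edgeR FDR = 0.104). On log2(FPKM + 1) the limma test gave -0.34 with an adjusted p of 0.0155, which is under the FDR threshold and still under a 1.5-fold change.

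The RefSeq promoter table (GRCm38.p6) held 6 of the 10 genes: Ccl3, Ccl6, Ccl9, Ccl22, Cxcl2 and Cxcl10. Ccl2, Ccl4, Ccl5 and Ccl7 had no entry. Each 300-base promoter, of which 50 bases lie after the start, was searched on both strands for GGGNNNTTC (kB-like, in 14.0% of the 32851 promoters), GAAANNGAA (interferon-response-element-like, 8.6%), TTCNNNNGAA (STAT6-like, 7.0%) and TGANTCA (AP-1-like, 7.8%). A match shows only that these letters are present. The promoter of Ccl3, the most abundant ligand, is shown from base -250 to base -31 on the minus strand of chr11:83649409-83649628, with its single match in capitals, an interferon-response-element-like sequence on the opposite strand at -39 to -31.
Ccl3 promoter: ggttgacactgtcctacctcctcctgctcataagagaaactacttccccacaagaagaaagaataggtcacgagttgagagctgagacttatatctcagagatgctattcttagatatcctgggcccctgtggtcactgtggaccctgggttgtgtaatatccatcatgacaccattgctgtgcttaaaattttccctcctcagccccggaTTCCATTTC
The kB-like letters were not found in this Ccl3 window. The Ccl22 and Ccl6 promoters held none of the 4 motifs. The Ccl9 promoter held 1 kB-like match at -34 to -26 and an AP-1-like match at -53 to -47. The AP-1-like pattern TGANTCA is the same on both strands, so any match to it is found on both.

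Ccl9 and Ccl6 encode rodent chemokines that signal through CCR1 and attract myeloid cells. Ccl9 had 329, 348 and 348 CPM in shNC and 438, 424 and 443 CPM in shTrem2. In CPM all shTrem2 libraries were above all shNC libraries, with an SD of 11.2 CPM in shNC and 9.72 CPM in shTrem2. The log2 fold change of 0.38 ± 0.04 passed the FDR (edgeR FDR = 7.25e-06) but, at 1.30-fold, not the fold threshold. In FPKM the groups of Ccl9 overlapped, with 190, 209 and 240 in shNC and 277, 235 and 283 in shTrem2. On log2(FPKM + 1) the limma test gave 0.32 with an adjusted p of 0.0366. Ccl6 had 33, 32 and 37 counts in shNC and 38, 29 and 26 counts in shTrem2. Its groups overlapped, and the log2 fold change of -0.28 ± 0.27 had a 95% interval from -0.80 to 0.25 (edgeR FDR = 0.403). No difference was detected, and changes within that interval could not be told from none at this depth.

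Ccl2 and Ccl7 encode the monocyte chemoattractants MCP-1 and MCP-3, which act through CCR2. Ccl2 had 0, 1 and 2 counts in shNC and 9, 14 and 17 counts in shTrem2. It was close to absent in shNC and low but present in every shTrem2 library. The summed counts were 3 and 40, and scaled for depth the ratio was 11.8 with a 95% counting interval from 3.76 to 59.6. The filter removed Ccl2, and with every gene of at least 1 count kept the edgeR log2 fold change was 3.45. Adjusted p-values of that edgeR fit ran far lower than in the fit reported, with 1.04e-46 against 3.39e-06 for Trem2. They were therefore not used as support for Ccl2. Without shNC replicate 3 the log2 fold change of Ccl2 was 4.28 and without shNC replicate 1 it was 2.96. In those fits Ccl2 passed the filter only through its shTrem2 libraries, so the values only describe its counts. Ccl7 had 0 counts in all shNC libraries and 0, 2 and 0 counts in shTrem2, and no difference was detectable at this depth.

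Ccl22 encodes a ligand of CCR4 that attracts regulatory T cells and is known as an IL-4-induced macrophage product. It had 18, 17 and 12 counts in shNC and 7, 1 and 2 counts in shTrem2. The groups did not overlap, although all 6 values were small. The log2 fold change was -2.34 ± 0.56 (edgeR FDR = 0.00284). Ccl22 passed the filter only through its shNC libraries, so these values only describe its counts. The size of the change rested on few reads and was -3.42 without shTrem2 replicate 1. In the fit over transcript rows the adjusted p of Ccl22-201 was 0.0665. On log2(FPKM + 1) the Ccl22 difference was -0.44, under a 1.5-fold change.

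**Figure D2:**
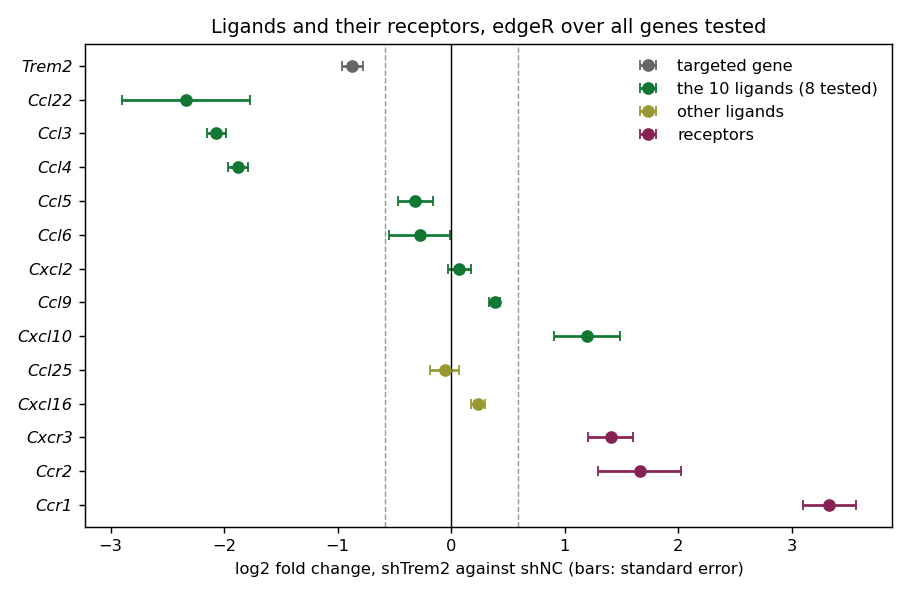
Log2 fold change of shTrem2 against shNC with its standard error from edgeR for Trem2, the 8 ligands tested, 2 other ligands and 3 receptors, with dashed lines at a 1.5-fold change. Ccl22, Ccl3 and Ccl4 lie left of the lines, Cxcl10 and the receptors Cxcr3, Ccr2 and Ccr1 right of them, and Ccl9 at 0.38 between them.

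Cxcl2 encodes MIP-2, a ligand of CXCR2 that recruits neutrophils. Summed per gene it showed no difference. It had 51.7, 51.6 and 37.3 CPM in shNC and 52.3, 47.3 and 44.6 CPM in shTrem2. The shTrem2 libraries lay within or near the shNC range, and the log2 fold change of 0.07 ± 0.10 had a 95% interval from -0.13 to 0.28 (edgeR FDR = 0.571). The count table has 1 row per transcript, and the 4 rows of Cxcl2 moved in opposite directions. The rows carry no transcript identifier and were matched to GENCODE M21 transcripts through the transcript lengths that best gave back the deposited FPKM, which left a largest error of 2.60%, against 10.4% at best with the rising row taken as another transcript.

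The coding transcript Cxcl2-201, which has 4 exons and 1109 nt, had 43.5, 45.7 and 32.3 CPM in shNC and 15.0, 10.3 and 7.72 CPM in shTrem2. Its log2 fold change was -1.84 ± 0.26 (edgeR over 33853 transcript rows, FDR = 0.00371). Every shTrem2 library was below every shNC library, as for Ccl3 and Ccl4. Cxcl2-203, annotated with a retained intron, is a single exon of 2066 nt and covers chr5:90903873-90905938 (GRCm38), the whole span of Cxcl2-201 with its introns. It had 6.99, 4.77 and 4.88 CPM in shNC and 35.5, 36.6 and 36.5 CPM in shTrem2. Its log2 fold change was 2.74 ± 0.16 (edgeR FDR = 0.000217). Among all transcript rows tested, 7.51% were lower and 6.1% were higher by the same threshold. Cxcl2-203 made up 12.0% ± 2.35 of the Cxcl2 counts in shNC and 75.7% ± 7.07 in shTrem2 (SD, n = 3 each), and Cxcl2-201 fell from 86.4% ± 2.29 to 22.6% ± 5.76. Reads of exons shared by both transcripts were split by the authors' estimation, so these levels are estimates. With coding rows alone, the gene's log2 fold change was -1.83 (edgeR FDR = 2.23e-06).

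**Figure D3:**
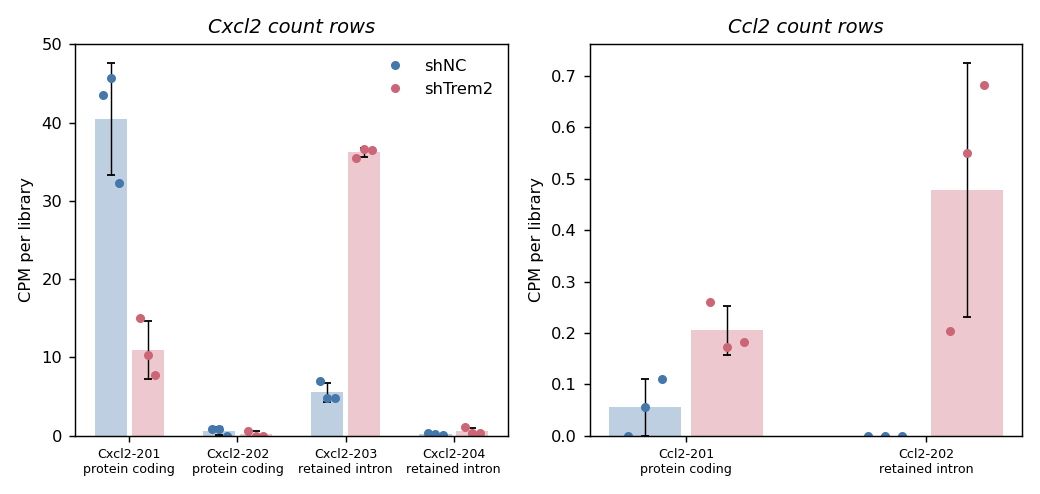
CPM of the annotated transcript rows of Cxcl2 (left) and Ccl2 (right) in each library (points), with group means (bars) and SD (n = 3). The coding row Cxcl2-201 is lower and the retained-intron row Cxcl2-203 higher in every shTrem2 library, and the retained-intron row of Ccl2 is at 0 in every shNC library.

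Ccl2 also has a retained-intron row, Ccl2-202. It had 0 estimated counts in all shNC libraries and 3.95, 10.7 and 13.4 in shTrem2, while the coding row Ccl2-201 had 0, 1 and 2 in shNC and 5.05, 3.34 and 3.60 in shTrem2. The retained-intron row thus held 66.3% ± 19.4 of the Ccl2 counts in shTrem2, a share of few reads. Ccl3 and Ccl4 have only a coding row. In the retained-intron rows of the other ligands this pattern could not be judged. Ccl5-202 averaged 0.0987 CPM in shNC and was at 0 in shTrem2, Ccl6-202 averaged 0.237 and 0.0634 CPM, and Cxcl10-204 averaged 0.138 and 0.0801 CPM, all too low to be tested. The targeted gene had such a row too. Trem2-203 was at 25.3, 29.2 and 32.4 CPM in shNC and 43.2, 44.3 and 54.6 CPM in shTrem2, a log2 fold change of 0.74 ± 0.13 (edgeR FDR = 0.00856). The part of unspliced RNA in these results was not tested.

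The Cxcl2 promoter is shown from base -250 to base -31 on the plus strand of chr5:90903649-90903868, because the gene holds the most kB-like matches of the ligands searched. Capitals mark 3 matches, of which those at -97 to -89 and -95 to -87 overlap on opposite strands and the other lies at -78 to -70.
Cxcl2 promoter: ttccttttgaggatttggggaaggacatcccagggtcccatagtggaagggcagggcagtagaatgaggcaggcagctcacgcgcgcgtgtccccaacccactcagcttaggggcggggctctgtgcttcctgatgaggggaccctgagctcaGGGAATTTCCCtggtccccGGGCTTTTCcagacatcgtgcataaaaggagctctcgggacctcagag
No interferon-response-element-like, STAT6-like or AP-1-like letters were found in this window.

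Cxcl10 encodes IP-10, an interferon-inducible ligand of CXCR3 that attracts activated T cells. It had 31, 25 and 24 counts in shNC and 92, 45 and 67 counts in shTrem2, or 1.95, 1.41 and 1.33 against 4.73, 2.33 and 3.41 CPM. The shTrem2 libraries varied among themselves but all lay above the highest shNC library. The log2 fold change was 1.20 ± 0.29 (edgeR FDR = 0.00309), a 2.30-fold increase, and it was 0.92 without shTrem2 replicate 1, the highest library. The coding row Cxcl10-201 held 88.8% ± 7.0 of the gene's counts in shNC and 92.7% ± 9.24 in shTrem2. Its promoter is shown from base -250 to base -31 on the minus strand of chr5:92348920-92349139. Capitals mark an interferon-response-element-like match at -213 to -205, kB-like matches at -159 to -151 and -104 to -96, and an AP-1-like match at -74 to -68.
Cxcl10 promoter: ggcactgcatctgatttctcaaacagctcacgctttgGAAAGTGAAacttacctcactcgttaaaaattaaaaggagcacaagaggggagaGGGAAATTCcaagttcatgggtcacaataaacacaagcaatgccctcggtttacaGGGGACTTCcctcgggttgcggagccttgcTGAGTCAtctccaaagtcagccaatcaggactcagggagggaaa
Cxcl10 was the only promoter of the 6 that held both the kB-like and the interferon-response-element-like letters.

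Levels of different ligands were compared in FPKM, which is scaled for length. In shNC the order was Ccl3 at 1869 ± 194 FPKM, Ccl4 at 525 ± 23.8, Ccl9 at 213 ± 25.0, Cxcl2 at 57.6 ± 11.4 and Ccl5 at 30.7 ± 2.49 (SD, n = 3), each clear of the next in every library. Ccl6 at 2.07 ± 0.26 and Cxcl10 at 1.89 ± 0.32 overlapped, Ccl22 followed at 0.48 ± 0.12, and Ccl2 and Ccl7 were at or near 0. In shTrem2 the order was Ccl3 at 434 ± 48.6 FPKM, Ccl9 at 265.3 ± 26.3, Ccl4 at 139 ± 23.3, Cxcl2 at 42.1 ± 8.49 and Ccl5 at 24.1 ± 2.14, again without overlap between neighbours. Ccl9 thus stood above Ccl4 in all 3 shTrem2 libraries and below it in all 3 shNC libraries. Cxcl10 followed at 4.37 ± 1.5 FPKM, above Ccl6 at 1.5 ± 0.28, while Ccl6 overlapped with Ccl2 at 1.03 ± 0.24 and Ccl22 with Ccl7.

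The summed FPKM of these 10 ligands and the 27 other ligands listed was 2845, 2857 and 2488 in shNC and 995, 831 and 1003 in shTrem2. The total was lower in every shTrem2 library, and Ccl3 held the largest share of it in all 6 libraries. Ccl3 made up 68.4% ± 2.03 of the sum in shNC and 46.0% ± 0.46 in shTrem2. Ccl4 went from 19.3% ± 0.67 to 14.7% ± 1.18, and Ccl9 from 7.89% ± 1.55 to 28.1% ± 0.24. Cxcl2 made up 2.10% ± 0.27 and 4.48% ± 0.82, and Cxcl10 0.069% ± 0.009 and 0.458% ± 0.125. These shares sum to a fixed total, so the larger share of Cxcl2 and Ccl5 in shTrem2 goes with FPKM levels that were not higher. The FPKM ratio of Ccl3 to Ccl4 was 3.73, 3.62 and 3.30 in shNC and 3.24, 3.30 and 2.88 in shTrem2, so the groups met at 3.30. The ratio of Ccl3 to Ccl9 went from 8.91 ± 1.86 to 1.63 ± 0.03.

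**Figure D4:**
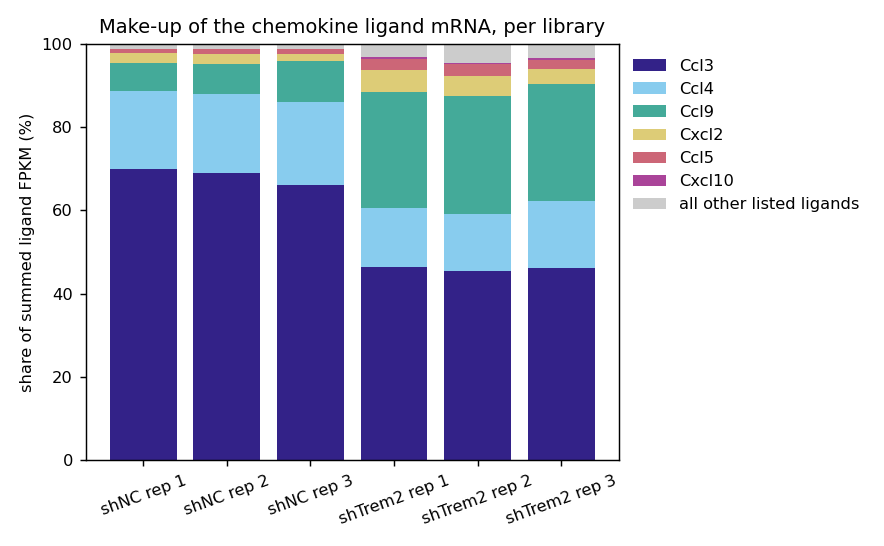
Share of the summed chemokine ligand FPKM (%) held by each ligand in the 6 libraries, as stacked bars. Ccl3 (dark blue) fills 66.1% to 70.0% of the bar in shNC and 45.5% to 46.4% in shTrem2, while Ccl9 (green) fills 6.69% to 9.64% and 27.9% to 28.3%.

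By position in GRCm38, 7 of the 10 genes lie on chromosome 11. Ccl5, Ccl9, Ccl6, Ccl3 and Ccl4 follow each other within 138.91 kb, from 83525778 to 83664683. Neighbours in this stretch differed in their values. Ccl3 and Ccl4, 13.23 kb apart, fell by 2.07 and fell by 1.88 on the log2 scale, respectively, whereas Ccl9 was 0.38 higher and Ccl5 and Ccl6 missed the threshold. Ccl2 and Ccl7, 8.26 kb apart and 1478.25 kb from Ccl5, were near 0 in shNC, and of the pair Ccl2 alone had more than 3 counts in shTrem2. Cxcl2 and Cxcl10 lie on chromosome 5 and Ccl22 on chromosome 8.

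Of 27 other chemokine ligands listed, 23 had 3 counts or fewer in every library, among them Ccl17 and Ccl24, ligands known from IL-4-treated macrophages, and Cxcl1 and Cxcl3, neutrophil attractants like Cxcl2. Ccl17, Ccl24, Cxcl1 and Cxcl3 were named after their values were seen. The 2 that were tested, Ccl25 and Cxcl16, gave log2 fold changes of -0.06 ± 0.13 and 0.24 ± 0.06 (edgeR FDR = 0.732 and 0.00656), and neither reached a 1.5-fold change. By edgeR, 0 of these 2 were DEGs and 1 had an unadjusted p under 0.05, and DESeq2 also called 0. Transcripts of the family were thus almost entirely those of the 10 ligands described, with Cxcl16, a membrane-bound ligand, at 0.596% ± 0.037 of the summed FPKM in shNC and 1.94% ± 0.27 in shTrem2.

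Receptors for these ligands were rare, and the 3 of 9 that passed the filter were all DEGs and higher in shTrem2, against 9.46% higher DEGs among all genes tested. Ccr1, a receptor of CCL3, CCL5, CCL6 and CCL9, had 7, 16 and 15 counts in shNC and 146, 139 and 139 counts in shTrem2. Ccr1 was low in every shNC library and uniform in shTrem2, with a log2 fold change of 3.33 ± 0.23 (edgeR FDR = 6.12e-08). Ccr2, the receptor of CCL2 and CCL7, had 4, 12 and 12 counts in shNC and 35, 32 and 31 counts in shTrem2, a log2 fold change of 1.66 ± 0.37 (edgeR FDR = 0.00158). Cxcr3, the receptor of CXCL10, had 28, 40 and 38 counts in shNC and 100, 92 and 118 counts in shTrem2, a log2 fold change of 1.41 ± 0.20 (edgeR FDR = 4.12e-05). The groups did not overlap in any of these 3, which was also so for 63.5% of all genes. Ccr1 and Ccr2 entered the test mainly through the shTrem2 libraries, so their differences and the count of higher receptors are descriptions. With at least 10 counts required in every library only 1 receptor was called. Ccr4, the receptor of CCL22, had 0, 7 and 4 counts in shNC and 0, 2 and 9 in shTrem2, and Cxcr2, the receptor of CXCL2, had 3, 6 and 5 and then 6, 2 and 3. For these the groups could not be separated at this depth.

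NF-kB is held in the cytoplasm by inhibitory proteins and, once freed, transcribes many chemokine genes together with its own inhibitors. Of 12 listed NF-kB subunits and feedback genes, all were tested, 8 were DEGs and all 8 were lower in shTrem2, against 21.8% DEGs and 12.4% lower DEGs among all genes tested. The median over the list was -0.71 on the log2 scale, against 0 over all genes. Bcl3, a nuclear NF-kB cofactor, had 11.6, 9.61 and 10.7 CPM in shNC and 2.16, 2.58 and 2.34 CPM in shTrem2, a log2 fold change of -2.13 ± 0.16 (edgeR FDR = 9.96e-08). Nfkbiz, another nuclear cofactor, gave -1.31 ± 0.09, the subunit Rel gave -1.29 ± 0.09 and the inhibitor Nfkbia gave -0.87 ± 0.06 on the same scale. Rela, the most widely used activating subunit, was at 0.02 ± 0.06 (edgeR FDR = 0.830) and was named after its values were seen. At the FDR alone 11 of the 12 passed, all lower, against 57.4% of all genes in either direction.

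Of 12 listed genes of the interferon axis, 11 were tested and 2 were DEGs, in opposite directions, a share near the 21.8% of all genes. Irf8, a myeloid transcription factor, was lower by a log2 fold change of -0.95 ± 0.06 (edgeR FDR = 1.53e-08). The median of the list was 0, as for all genes, and Ifnb1, the gene of interferon beta, had at most 2 counts per library.

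Of 7 genes of the IL-4 axis, all were tested and 1 was a DEG, against 21.8% of all genes. Il4ra, the receptor chain that binds IL-4, fell from 5.66 ± 0.38 to 2.14 ± 0.26 CPM, a log2 fold change of -1.37 ± 0.19 (edgeR FDR = 3.24e-05). Stat6, the transcription factor downstream of it, was at 0.28 ± 0.05 and below the fold threshold, and was named after its values were seen. The median of this list was 0.12. Of 8 regulators of mRNA decay, some of which are known to shorten the life of chemokine and cytokine mRNAs, 3 were DEGs, against the same 21.8%. Zfp36l2 was higher with a log2 fold change of 0.72 ± 0.05, and Zc3h12a, the RNase Regnase-1, and Zfp36l1 were lower with -1.11 ± 0.11 and -0.60 ± 0.06. The median of this list was 0.13.

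**Figure D5:**
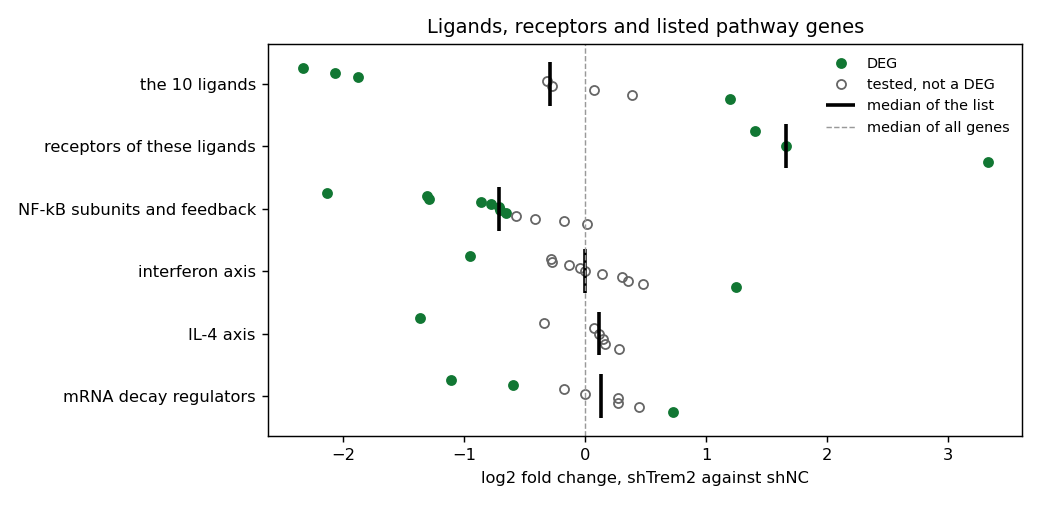
Log2 fold change of shTrem2 against shNC for each tested gene of 6 lists, with DEGs as filled and other genes as open circles, list medians as black bars and the median of all genes (0) as a dashed line. The NF-kB list has 8 DEGs, all to the left, and the 3 receptors lie to the right, while the ligands and the other lists spread over both sides.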

How the data were processed

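RNA was poly(A)-selected and sequenced from stranded, paired-end libraries. According to the study's methods and the submitters' processing notes, fastp was used to trim the reads, HISAT2 to align them and StringTie to assemble transcripts, and the notes name the build GRCm39. The counting tool and annotation release are not given in the sources used here. The authors deposited estimated counts per transcript, unscaled, with a gene symbol per row, and FPKM per gene, scaled for depth and effective length. The authors' group means were not used.

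Estimated counts were summed per symbol and rounded. Rows with no symbol held 0.908% to 1.12% of the counts and were left out. edgeR 4.0.16 (TMM, filterByExpr by group, quasi-likelihood test, no covariates) in R 4.3.3 was fitted over all 13528 genes that passed, with Benjamini-Hochberg adjustment over all of them, and tested on simulated data. The 95% intervals of log2 fold changes are normal intervals from the standard error. The 95% interval of the Ccl2 count ratio is exact for Poisson counts. limma 3.58.1 used log2(FPKM + pseudocount), with pseudocounts of 1 and 0.1, and its fold changes are on that scale, which understates changes of low genes. DESeq2 1.42.0 and limma-voom were alternatives. Transcript rows were matched to GENCODE M21 (GRCm38) by annotated length, and positions and promoters are given on GRCm38, not converted.

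The 10 genes and all lists were chosen with earlier results of these data known. Named were the 10 genes, Trem2, tested receptors, DEGs among other ligands and up to 4 DEGs per list by size. The values of some listed genes are not reported here. Tubular markers with counts of 0 and other exceptions were named after their values were seen. The coding-row sums and the transcript-row fits were added after seeing the data. Replicate numbers did not pair libraries, as same-numbered libraries correlated between -0.005 and 0.007 in their deviations from group means.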

Additional observations from a re-analysis of the deposited data

How the results depend on the processing

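Per gene, Ccl3, Ccl4 and Cxcl10 kept their direction and their side of the FDR threshold under every alternative in which they were computed (other normalizations, DESeq2, limma, other filters, each library left out). Ccl22 did so too, but it passed the filter of the fit reported only through its shNC libraries, so this only describes its counts. On log2(FPKM + 1), however, Ccl22 was at -0.44, under a 1.5-fold change, so that 3 ligands were DEGs and 2 of them lower. Ccl22 could not be tested with at least 10 counts in every library. With at least 1 count in all libraries together, and with no fold threshold, 2 of the ligands were higher DEGs in place of 1. Leaving out each library gave 1 to 2. Leaving out any shNC library or shTrem2 replicate 1 gave 2, since Ccl2 then passed the filter, only through its shTrem2 libraries. DEGs among all genes numbered 2951 in the fit reported, 1339 at a fold change over 2 and 7763 with no fold threshold. At a fold change over 2, the DEGs were 3 for NF-kB, 1 for interferon and 1 for decay genes. With no fold threshold they were 1 for the other ligands, 7 for interferon, 4 for IL-4 and 7 for decay genes. Receptors had 1 DEG with at least 10 counts in every library.

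Cxcl2 per gene changed sign. Its log2 fold change was -0.44 on log2(FPKM + 1), -0.45 on log2(FPKM + 0.1), where FPKM is scaled for the length of the transcripts present, and -1.83 with coding rows only, and it ranged from -0.0651 (without shNC replicate 3) to 0.1392 with each library left out. Cxcl2-201 stayed between -2.13 and -1.63 and Cxcl2-203 between 2.64 and 2.93 over 14 alternatives. Scaling by library size only moved the share of DEGs that were higher from 43.4% to 39.0% and the median of all genes by -0.03. With the replicate number as a replicate block, 2911 genes were DEGs, 2871 of them shared with the fit reported, and 4 ligands were called, so this paired fit changed no call of a ligand. Depth limited Ccl2, Ccl6, Ccl7 and Ccl22 and most receptors, with at most 38 counts per library for these ligands.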
